A study of Mus musculus with 12 samples.

Results

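Cholesterol and fatty acid synthesis were followed through 32 genes, taken by symbol from a gene table of 25511 genes measured in mouse osteoblast cultures. All 32 had a row in the table, and all 32 passed the filter on low counts that left 13603 genes for testing. They are 6 genes of sterol control, 7 of the mevalonate steps, 3 that make and close squalene, 8 of the late sterol steps and 8 of fatty acid synthesis. Cells build cholesterol from acetyl-CoA through mevalonate, isoprenoids and squalene, and build fatty acids from the same acetyl-CoA through malonyl-CoA. Both routes are governed by the SREBP transcription factors, which Scap and the Insig proteins hold in the endoplasmic reticulum while sterols are plentiful and which switch on the synthesis genes once they are released and cut. In bone, the mevalonate route is best known through farnesyl diphosphate synthase, the target of the nitrogen-containing bisphosphonates.

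The cells were osteoblast-like cells freed by collagenase from the calvariae (skull bones) of newborn C57Bl/6J mice, which were either wild-type (WT) or labelled F2rl1 -/- (knockout, KO). F2rl1 encodes protease-activated receptor 2, a receptor that proteases switch on by cleaving it, and the study asked what it contributes when bone-forming cells meet factors released by prostate cancer cells. After 48 h of preculture the cells spent 4 days in BRFF-HPC1 medium with 20% fetal calf serum, which was either unconditioned or taken after MDA-PCa-2b cells, derived from a human prostate cancer, had grown in it for 48 h (conditioned medium). The serum was common to all 4 groups of 3 libraries, and the labels state neither the KO allele nor whether the libraries of a group come from different animals, so the p-values speak of the scatter among these libraries, which may be technical.

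Libraries held 15023994 to 16956754 fragments. Libraries 0 and 1 of unconditioned WT carried the same values within counting noise and were counted as 1, which left 11 libraries. F2rl1 itself had 20 to 25 fragments in unconditioned WT and 33 to 46 in unconditioned KO, and 14 to 23 in conditioned WT and 12 to 31 in conditioned KO. Its level was therefore not lower in KO. It was higher in every unconditioned KO than in every unconditioned WT library, and the conditioned groups overlapped. The deleted part of the gene is not given in the sources used here, and KO below means libraries titled KO. A sample titled WT in unconditioned medium carries the KO genotype label and was placed in WT by its title. All comparisons with unconditioned WT rest on that title, which was not tested. Of the 9 osteoblast markers, Col1a1, at 100542 to 328342 fragments per library, Col1a2, Sparc and Spp1, at 29518 to 177955, were abundant, while the late markers Ibsp and Bglap were near 0, at 3 to 16 and 0 to 13. With conditioned medium in KO all 8 osteoblast markers tested had negative changes, with a median of -0.76, and Alpl was called lower, at -1.68 (SE 0.47, adjusted p = 0.0366). In WT 1 of the 8 had a positive change, the median was -0.36, and none was called. The difference between the genotypes' medium effects passed the edgeR test for none of the 8 (smallest adjusted p = 0.835). The adipocyte markers Adipoq, at 3 to 31 fragments, and Lep, at 0 to 2, were near 0 as well, and the 7 adipocyte markers summed to 258 to 328 fragments in unconditioned WT, 206 to 260 in conditioned WT, 240 to 671 in unconditioned KO and 179 to 240 in conditioned KO. The 6 macrophage markers, none of which was called in a medium comparison, summed to 797 to 986 fragments in unconditioned WT, 1441 to 1832 in conditioned WT, 586 to 920 in unconditioned KO and 808 to 1751 in conditioned KO, and the 4 endothelial markers to 100 to 112, 141 to 219, 55 to 92 and 126 to 282. Of these, the endothelial markers Tek and Kdr and, downwards, the adipocyte marker Fabp4 were called with medium in KO. The 4 skeletal muscle markers summed to 280 to 2340, 143 to 1492, 329 to 766 and 306 to 464 fragments, and the 3 keratinocyte markers to 40 to 381, 67 to 180, 30 to 68 and 38 to 59. The part of all these markers in the results was not tested, and in such bulk samples a change in the share of a cell type and a change in RNA per cell cannot be told apart. Conditioned KO library 0 stood apart from the other conditioned KO libraries. Without it, the genes called between KO and WT in conditioned medium went from 0 to 4507 of 13575 (33.2%). Unconditioned KO library 0 also stood apart. Its chi-square over genes was 893400 and 1188854 against libraries 1 and 2 of its group, which gave 94593 between them. Conditioned WT library 1 likewise gave 577033 and 988524 against libraries 0 and 2 of its group, which gave 270397 between them. Values without conditioned KO library 0 are given beside the counts of calls and the results that it changes. These fits keep unconditioned KO library 0.

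The desaturase Scd2 was the most abundant member per length, with a mean of 159 FPKM (fragments scaled by the authors to transcript length and library size). It was followed by Fads1 at 85.9 FPKM, Scd1 at 73.2 FPKM and the citrate-cleaving enzyme Acly at 51.2 FPKM. Fatty acid genes thus held the top 4 places, although the Fads1 row also holds Fads3. The least abundant members were the isomerase Idi1 at 1.34 FPKM and Acaca, which makes malonyl-CoA, at 3.77 FPKM. The sensors and factors lay between, with Srebf2 at 36.1 FPKM, Scap at 30.4, Srebf1 at 25.3, Insig2 at 22.7 and Insig1 at 17.8.

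In conditioned WT cells the members were high or low together in a library, but the 3 libraries of the group did not agree. In each library, the level of every member was set against its mean over the groups on the log2 scale of CPM (counts scaled to library size and corrected for library composition), and the median over the 32 members was taken. This median was -0.13 and -0.01 in unconditioned WT libraries 0 and 2, and 0.41, 0.92 and -0.27 in conditioned WT libraries 0, 1 and 2. It was -0.33, -0.05 and 0.00 in unconditioned KO and -0.12, 0.00 and -0.25 in conditioned KO. Conditioned WT libraries 0 and 1 were therefore high and library 2 was low. The keratinocyte markers had the same order there, with medians of 2.06, 2.94 and -1.79, and were at 4.14 and -1.76 in unconditioned WT. Between KO and WT in conditioned medium 2 of these 3 markers had an unadjusted p under 0.05, with a median difference of -4.34, and their part in the members' values was not tested. Counted gene by gene, 27 of the 32 members in conditioned WT library 0 and 30 in library 1 lay above every unconditioned WT library, while 23 members in library 2 lay below every unconditioned WT library. Within conditioned WT, library 1 was the highest for 30 members and library 2 the lowest for 30. No such single order held in conditioned KO, where library 1 was above every unconditioned KO library for 13 members and below for 6, and library 2 was above for 7 and below for 15.

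**Figure D1:**
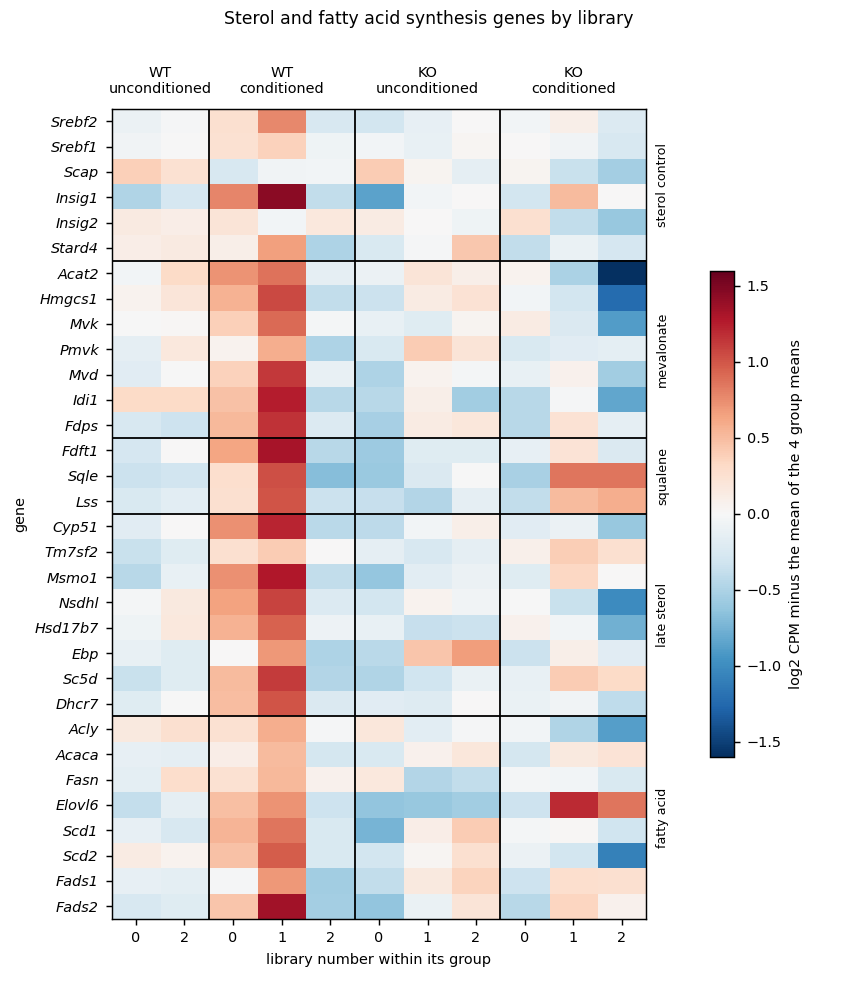
Log2 CPM of each of the 32 genes (rows, grouped by step) in each of the 11 libraries (columns, grouped by genotype and medium), less the mean of the 4 group means; red is higher and blue lower. Conditioned WT libraries 0 and 1 are red for nearly every gene and library 2 is pale blue, while in conditioned KO libraries 1 and 2 Sqle, Lss and Elovl6 are red beside mevalonate genes that are bluest in library 2.

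In WT cells, 30 of the 32 members had a positive log2 change with conditioned medium, with a median of 0.47 over the members against 0.01 over all 13603 genes, and none passed the test. The range ran from -0.43 for Scap, the escort that carries SREBPs to the Golgi, to 1.17 for Insig1, the anchor that holds Scap back when sterols are plentiful. All 3 squalene genes, all 8 late sterol genes, all 7 mevalonate genes and all 8 fatty acid genes had positive values, with step medians of 0.70, 0.57, 0.40 and 0.33. No member was called by the quasi-likelihood test of edgeR (adjusted p under 0.05 after Benjamini-Hochberg adjustment over all genes), against 1.78% of all genes called in either direction, 1.23% higher and 0.551% lower. At an unadjusted p under 0.05, 4 members were higher and none lower, against 15.2% of all genes in either direction. DESeq2 called 1 member, the Tm7sf2 row, against 6.73% of all genes, and limma on log2 FPKM called none. Fdps and the Tm7sf2 row had higher values in every conditioned than in every unconditioned WT library, as 21.8% of all genes did. Scap had lower ones, as 20.6% of all genes did.

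The members of sterol control show the spread between libraries. Throughout, CPM values are listed for unconditioned WT libraries 0 and 2, conditioned WT 0, 1 and 2, unconditioned KO 0, 1 and 2, and conditioned KO 0, 1 and 2. Srebf2, the factor that drives the sterol genes, was at 166 and 175 CPM, then 210, 303 and 147, then 145, 162 and 177, and then 172, 188 and 152. Its conditioned WT libraries lay on both sides of the unconditioned ones, and its change in WT was 0.37 (SE 0.25, adjusted p = 0.557). Srebf1, which drives the fatty acid genes, was at 113 and 117 CPM, then 139, 152 and 112, then 115, 108 and 120, and then 119, 113 and 97.8. Its groups overlapped in both genotypes, with a change of 0.23 in WT (SE 0.14, adjusted p = 0.505) and -0.06 in KO (SE 0.13, adjusted p = 0.765). Insig1, itself a target of the SREBPs, was at 33.4 and 38.5 CPM, then 80.0, 127 and 35.2, then 25.6, 44.9 and 46.4, and then 38.0, 65.7 and 46.4. Conditioned WT libraries 0 and 1 were well above the controls and library 2 among them, for a change of 1.17 (SE 0.47, adjusted p = 0.270). Scap was at 176 and 160 CPM, then 113, 130 and 132, then 180, 139 and 123, and then 139, 106 and 93.2. It was low in all conditioned WT libraries, while its KO groups overlapped, with changes of -0.43 in WT (SE 0.20, adjusted p = 0.340) and -0.39 in KO (SE 0.18, adjusted p = 0.140).

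Among the mevalonate enzymes, Hmgcs1, which joins acetyl-CoA and acetoacetyl-CoA into HMG-CoA, was at 136 and 150 CPM, then 193, 274 and 100, then 103, 144 and 155, and then 128, 108 and 56.3. Both conditioned groups overlapped their controls, with a change of 0.40 in WT (SE 0.41, adjusted p = 0.743) and -0.47 in KO (SE 0.37, adjusted p = 0.382). Idi1, which isomerises isopentenyl diphosphate, was at 4.80 and 4.75 CPM, then 5.34, 9.32 and 2.78, then 2.77, 4.09 and 2.56, and then 2.80, 3.77 and 2.1. Every unconditioned KO library was below both unconditioned WT libraries, but the difference of -0.60 (SE 0.45, adjusted p = 0.998) did not pass the test. In the late sterol steps, Cyp51, the lanosterol demethylase, was at 112 and 127 CPM, then 211, 296 and 94.3, then 94.5, 122 and 135, and then 112, 119 and 83.1. Nsdhl, which acts after it in demethylation, was at 23.3 and 26.6 CPM, then 37.0, 50.3 and 20.5, then 19.4, 24.6 and 22.8, and then 23.6, 18.4 and 11.7. For both enzymes conditioned WT library 2 was the lowest WT library and conditioned KO library 2 the lowest of all 11. The WT changes were 0.75 for Cyp51 (SE 0.38, adjusted p = 0.407) and 0.53 for Nsdhl (SE 0.36, adjusted p = 0.567).

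Of the fatty acid genes, Fasn, the fatty acid synthase, was at 219 and 297 CPM, then 288, 350 and 256, then 276, 177 and 186, and then 239, 237 and 206. Its groups overlapped in both media comparisons, with changes of 0.21 in WT (SE 0.22, adjusted p = 0.751) and 0.10 in KO (SE 0.20, adjusted p = 0.756). Scd1, a stearoyl-CoA desaturase, was at 344 and 315 CPM, then 550, 682 and 318, then 226, 407 and 502, and then 371, 382 and 302. Scd2, its close relative and the main desaturase here, was at 982 and 938 CPM, then 1240, 1760 and 754, then 728, 917 and 1080, and then 840, 730 and 425. Fads2, which starts the desaturation of polyunsaturated fatty acids, was at 67.0 and 70.5 CPM, then 109, 203 and 55.3, then 51.9, 74.2 and 92.3, and then 58.9, 102 and 84.3. Each of these 3 desaturases was highest in conditioned WT library 1, and their WT changes were 0.65 (SE 0.36, adjusted p = 0.446), 0.38 (SE 0.37, adjusted p = 0.712) and 0.83 (SE 0.46, adjusted p = 0.451).

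How many members were called in WT depended on conditioned WT library 2, among other choices. Without it Cyp51 rose by 1.08 (SE 0.24, adjusted p = 0.0479), Msmo1, the C4-methyl oxidase, by 1.30 (SE 0.26, adjusted p = 0.0329) and Sc5d, the C5-desaturase, by 1.12 (SE 0.25, adjusted p = 0.0446). Of all genes 3.28% were called in that fit, 223 higher and 221 lower. The authors' deposited table of start-site groups, which used all 12 libraries and so counts the repeated one in full, marked 11 of 38 member groups as significant in WT, all higher, among 8.76% of all groups. These were groups of Cyp51, Dhcr7, Elovl6, Fdps, Insig1, Lss, Msmo1, Mvd, Sc5d, Scd1 and Sqle.

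In KO cells, the members did not share a direction in conditioned medium: Elovl6, which lengthens saturated fatty acids, rose, while the 3 squalene genes had positive and all 7 mevalonate genes negative changes that did not pass the test. Their median was -0.05, against 0.02 over all genes, and -0.09 without conditioned KO library 0, and the range ran from -0.61 for Acat2, a cytosolic acetoacetyl-CoA thiolase, to 1.30 for Elovl6. Step medians were -0.19 for the mevalonate steps, 0.62 for squalene, 0.00 for the late sterol steps and 0.03 for fatty acids. The test called 2 of 32 members, both higher, which were Elovl6 and the Tm7sf2 row. The background was 18.3% of all genes called in either direction, 9.68% higher and 8.58% lower. DESeq2 called the same 2 members, against 26.4% of all genes, and limma none. At an unadjusted p under 0.05 there were 2 members (6.25%), against 36.9% of all genes.

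Elovl6 was at 37.7 and 44.0 CPM, then 68.3, 80.5 and 38.8, then 31.6, 32 and 33.2, and then 38.9, 112 and 88.0. Every conditioned KO library was above every unconditioned KO library, but library 0 by far less than the other two. For 15.8% of all genes the conditioned KO libraries were likewise all higher, and among the members these were Elovl6 and the Tm7sf2 row. The change in KO was 1.30 (SE 0.36, adjusted p = 0.0345, higher in 3 of 3 libraries). The libraries numbered alike within KO varied together, and with that number as a block the change was 1.18 with an adjusted p of 0.0597. The call was kept in 3 of 11 fits that left out 1 library. Averaged over both genotypes Elovl6 rose by 0.96 (SE 0.27, adjusted p = 0.0323), and by 0.76 with an adjusted p of 0.089 under the block, a call kept in 2 of 11 fits without 1 library. WT and averaged values under the block, here and below, take nothing from conditioned WT library 1, which had no unconditioned library of its number.

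The other row called is shared between a sterol gene and another gene. The Tm7sf2 row, named for a sterol C14-reductase, also holds Vps51, a subunit of a vesicle-tethering complex. The row was at 19.8 and 22.3 CPM, then 30.4, 34.0 and 25.8, then 23.3, 21.3 and 23.0, and then 27.1, 33.6 and 30.4, and its change in KO was 0.43 (SE 0.13, adjusted p = 0.0487, or 0.0787 with the block). Transcripts assigned to Tm7sf2 made up 2.15% to 22.5% of the row. Summed by symbol, as added after seeing the data, Vps51 rose by 0.43 in KO (SE 0.12, adjusted p = 0.0335) and Tm7sf2 had a change of 0.40 (SE 0.65, adjusted p = 0.683). The Fads1 row likewise holds Fads3, at 23.4% to 55.1% of its fragments, whereas Scd3 made up at most 0.0127% of the Scd2 row.

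**Figure D2:**
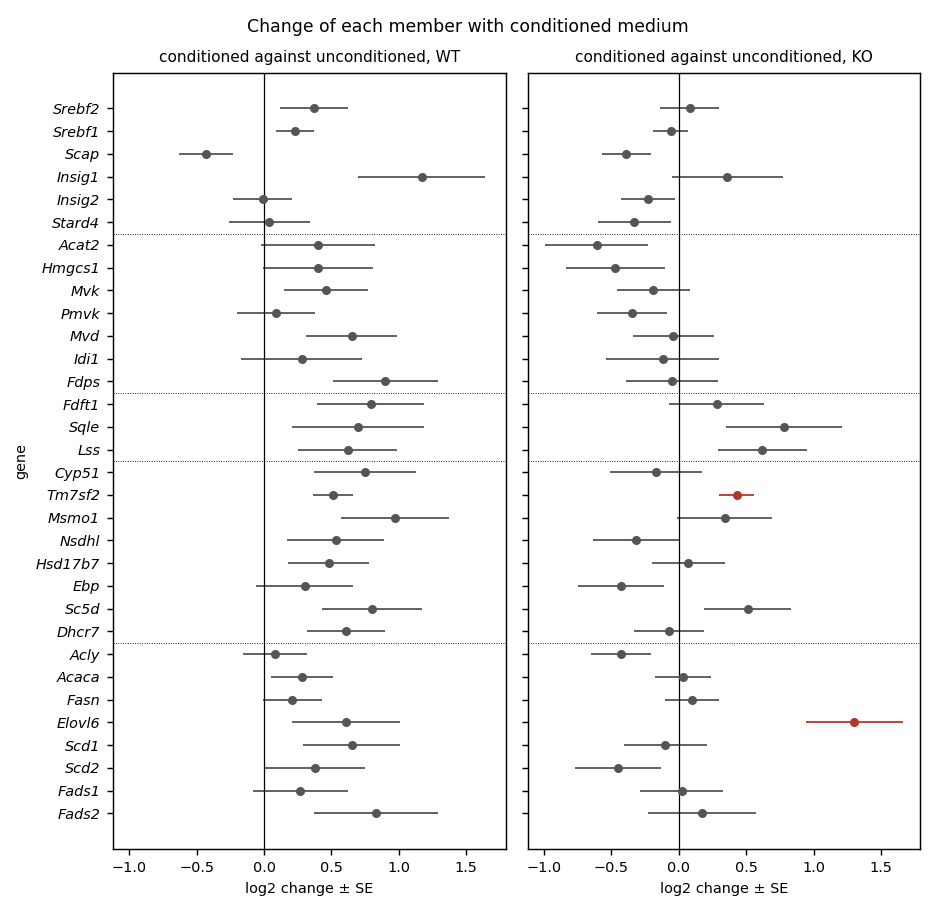
Log2 change of each of the 32 genes with conditioned medium in WT (left) and in KO (right), with its standard error; red marks an adjusted p under 0.05, and dotted lines separate the steps. In WT 30 genes lie right of 0 and none is red, and in KO the mevalonate genes lie left of 0, the squalene genes right of it, and Elovl6 at 1.30 and the Tm7sf2 row at 0.43 are red.

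Single libraries of conditioned KO show a split within the pathway. Sqle, the squalene epoxidase and a rate-limiting enzyme after HMG-CoA reductase, was at 60.1 and 61.3 CPM, then 92.0, 156 and 47.6, then 50.4, 64.9 and 75.5, and then 53.1, 138 and 137. Lss, the lanosterol synthase that closes the epoxide into a ring, was at 35.5 and 37.3 CPM, then 50.5, 84.9 and 33.2, then 32.6, 30.5 and 38.0, and then 32.2, 59.8 and 63.0. Acat2 was at 22.0 and 28.0 CPM, then 37.4, 41.4 and 20.5, then 21.2, 26.2 and 24.2, and then 23.6, 15.8 and 7.44. In conditioned KO libraries 1 and 2 Sqle and Lss were therefore above every unconditioned library while Acat2 was below every one of them, and library 0 stayed among the controls for all 3 genes. Lss and Acat2 were picked for this after their values were seen, as were the ratios that follow.

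The ratio of Sqle to Hmgcs1 fragments, taken within a library, was 0.440 and 0.408 in unconditioned WT, 0.477, 0.568 and 0.475 in conditioned WT, and 0.488, 0.449 and 0.486 in unconditioned KO. In conditioned KO it was 0.416, 1.27 and 2.43 in libraries 0, 1 and 2. The 9 libraries other than conditioned KO 1 and 2 thus kept the same ratio within a narrow range, including conditioned WT libraries 0 and 1, in which both genes were high. The ratio of Elovl6 to Scd2 fragments was 0.0308 to 0.0550 in those 9 libraries, and 0.153 and 0.207 in conditioned KO libraries 1 and 2. These ratios are descriptions without a test.

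Without conditioned KO library 0, 8 of 32 members were called in KO (25.0%), against 44.9% of all genes. The 4 higher ones were Elovl6 at 1.63 (SE 0.26, adjusted p = 0.00127), Sqle at 1.11 (SE 0.39, adjusted p = 0.0442), Lss at 0.87 (SE 0.31, adjusted p = 0.0487) and the Tm7sf2 row. The 4 lower ones were Acat2 at -1.04 (SE 0.37, adjusted p = 0.0465), Acly at -0.67 (SE 0.19, adjusted p = 0.0196), Insig2 at -0.53 (SE 0.11, adjusted p = 0.00540) and Scap at -0.57 (SE 0.16, adjusted p = 0.0172). Without both KO libraries numbered 0, 5 members were called in KO, against 50.4% of all genes. With all 12 libraries, the authors' deposited table marked 5 of 38 member groups in KO, among 16.8% of all groups. Elovl6, Lss and Sqle were higher there and Acat2 and a group of Acaca lower.

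**Figure D3:**
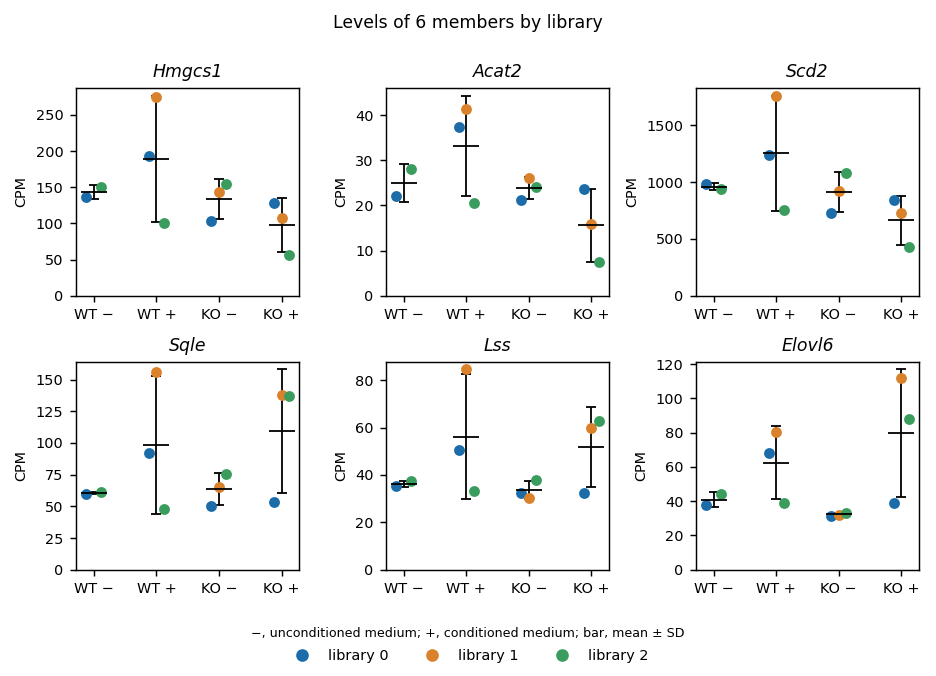
CPM of 6 genes in each library by genotype and medium; points are libraries, coloured by number, and bars give the mean and SD of 2 or 3 libraries. In conditioned KO, Sqle, Lss and Elovl6 are high in libraries 1 and 2, Acat2 is below the unconditioned KO libraries in both, and Hmgcs1 and Scd2 are below them in library 2 only, while library 0 stays near the unconditioned KO libraries in all 6 panels.

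Promoter windows of 4 of these genes are shown because the members moved apart in conditioned KO: Acat2 was below every unconditioned KO library in libraries 1 and 2 and Hmgcs1 in library 2 alone, while Lss and Elovl6 were above every one in libraries 1 and 2. Each window holds 250 bases before and 50 bases from the RefSeq start site (build GRCm38.p6), read 5′ to 3′ along the gene. Capitals mark any of TCACNCCAC or CACCCCAC, forms of the sterol regulatory element bound by SREBPs, CCAAT, the NF-Y box, CACGTG, an E-box, and GGGCGG, the Sp1 box, on either strand. Overlapping matches run together.
Hmgcs1, chr13:119690101-119690400, plus strand: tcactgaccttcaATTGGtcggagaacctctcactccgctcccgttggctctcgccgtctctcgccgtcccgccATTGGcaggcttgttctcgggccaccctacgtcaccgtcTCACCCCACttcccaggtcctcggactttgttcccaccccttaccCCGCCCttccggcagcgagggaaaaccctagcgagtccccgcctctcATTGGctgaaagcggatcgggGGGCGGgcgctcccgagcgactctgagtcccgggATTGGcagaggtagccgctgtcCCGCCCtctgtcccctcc
Acat2, chr17:12960676-12960975, minus strand: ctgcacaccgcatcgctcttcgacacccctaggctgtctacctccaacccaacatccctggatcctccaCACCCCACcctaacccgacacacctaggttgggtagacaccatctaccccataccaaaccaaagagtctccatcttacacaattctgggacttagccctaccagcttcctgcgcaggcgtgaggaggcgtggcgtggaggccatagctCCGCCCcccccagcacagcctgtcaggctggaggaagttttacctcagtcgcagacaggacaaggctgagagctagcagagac
Lss, chr10:76531355-76531654, plus strand: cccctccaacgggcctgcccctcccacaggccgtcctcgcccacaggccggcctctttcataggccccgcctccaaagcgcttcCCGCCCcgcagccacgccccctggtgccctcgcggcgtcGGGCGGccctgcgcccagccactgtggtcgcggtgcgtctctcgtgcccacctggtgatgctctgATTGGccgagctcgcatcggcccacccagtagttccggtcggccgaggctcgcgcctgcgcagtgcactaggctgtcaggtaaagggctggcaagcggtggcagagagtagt
Elovl6, chr3:129532136-129532435, plus strand: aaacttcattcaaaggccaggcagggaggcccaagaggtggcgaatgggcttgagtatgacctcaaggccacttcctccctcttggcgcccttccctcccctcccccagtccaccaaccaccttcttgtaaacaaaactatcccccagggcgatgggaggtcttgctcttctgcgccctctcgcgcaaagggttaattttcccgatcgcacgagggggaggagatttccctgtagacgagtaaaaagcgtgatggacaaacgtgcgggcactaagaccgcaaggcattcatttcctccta

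The Hmgcs1 window holds a TCACNCCAC match that starts 137 bases before the start site and overlaps a CACCCCAC match, with 4 CCAAT and 3 GGGCGG boxes around it. The Acat2 window holds CACCCCAC 181 bases before the start and a GGGCGG box. The Lss window has a CCAAT box and 2 GGGCGG boxes but neither sterol element form, and the Elovl6 window holds none of the 5 motifs. Among all 32851 windows, 1.24% hold TCACNCCAC, 2.87% CACCCCAC, 37.4% CCAAT, 7.15% CACGTG and 35.7% GGGCGG. RefSeq windows were at hand for 25 of the 32 members, in 33 windows, of which 1 held TCACNCCAC, 2 CACCCCAC, 21 CCAAT, 6 CACGTG and 25 GGGCGG. Hmgcs1 and Acat2 were the only members with either sterol element form. The other members with a window that were below every unconditioned KO library in conditioned KO library 2 had neither form. They were Acly, Cyp51, Dhcr7, Hsd17b7, Idi1, Insig2, Mvd, Mvk, Nsdhl, Scap and Srebf1. The windows shown were picked by their genes' values, and whether a motif goes with the direction of change was not tested. A match describes these letters only and does not show that a factor binds.

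Averaged over both genotypes, the medium effect on the members had a median of 0.19 with 23 of 32 positive, against 0.02 over all genes. The squalene genes had the highest step median, 0.62, and sterol control the lowest, -0.02. The test called 2 members, Elovl6 and the Tm7sf2 row at 0.47 (SE 0.10, adjusted p = 0.0103), against 20.5% of all genes. Of all genes 10.4% were called higher and 10.1% lower. At an unadjusted p under 0.05 there were 7 higher members and 1 lower, Scap at -0.41 (SE 0.13, adjusted p = 0.0531), against 36.3% of all genes. With the block Scap was called at -0.42 (SE 0.08, adjusted p = 0.0208), where 19.1% of all genes were called. DESeq2 called 4 members, Scap, Sc5d, Elovl6 and the Tm7sf2 row, against 26.8% of all genes. Without conditioned WT library 2, 7 members were called, against 17.9% of all genes. They were Elovl6, Fdft1, Insig1, Lss, Msmo1, Sc5d and the Tm7sf2 row. Without conditioned KO library 0 there were 6, against 41.6% of all genes, which were Elovl6, Insig2, Lss, Scap, Sqle and the Tm7sf2 row.

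Between the genotypes in unconditioned medium, no member passed the test. The median was -0.04, the range -0.60 to 0.45, and no member had an unadjusted p under 0.05, against 2.16% of all genes. No member was called by edgeR, DESeq2 or limma, beside 0.00735% of all genes called by edgeR. Elovl6, Hsd17b7, a late sterol reductase, and Idi1 were lower in every unconditioned KO than in every unconditioned WT library, as 8.01% of all genes were. In conditioned medium, 29 of 32 members were lower in KO, with a median of -0.57 against -0.01 over all genes, and none passed the test. Of all genes, 0% were called there. At an unadjusted p under 0.05, 12 members were lower and none higher (37.5%). Of all 13603 genes, 610 were lower and 1287 higher at that threshold (13.9% in either direction). Neither DESeq2 nor limma called a member. The mevalonate steps had a median of -0.74 and the late sterol steps -0.67, and 5 of 7 and 4 of 8 of their genes had an unadjusted p under 0.05. Squalene genes had a median of -0.12 and none of the 3 had an unadjusted p under 0.05.

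The members at the lower end in KO were Acat2 at -1.08 (SE 0.38, adjusted p = 0.357), Idi1 at -1.01 (SE 0.41, adjusted p = 0.357), Nsdhl at -1.01 (SE 0.32, adjusted p = 0.357) and Hmgcs1 at -0.96 (SE 0.37, adjusted p = 0.357). For all 4 the groups overlapped, since conditioned WT library 2 lay among the KO libraries. Acly and Fasn alone had no overlap between conditioned KO and conditioned WT, both lower in KO, as 4.22% of all genes were. The difference depended on single libraries on both sides. Without conditioned KO library 0, 6 members were called lower (18.8%), which were Acat2, Acly, Insig2, Mvk, Nsdhl and Scd2. Of all 13575 genes in that fit, 2158 were called lower and 2349 higher (33.2% in either direction). Without conditioned WT library 1 the median of the members moved to -0.22. The authors' deposited table marked 14 of 38 member groups as lower in KO in conditioned medium and none as higher, among 7.2% of all groups, and none in unconditioned medium, among 2.21%.

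The difference between the genotypes' medium effects was tested directly as an interaction, and no member passed. The median was -0.47 against -0.02 over all genes, with 29 of 32 negative, from -1.02 for Acat2 (SE 0.56, adjusted p = 0.819) to 0.69 for Elovl6 (SE 0.53, adjusted p = 0.819). No member had an unadjusted p under 0.05, against 3.03% of all genes, DESeq2 and limma called none, and 0% of all genes were called by edgeR. Without conditioned KO library 0, 1419 of all genes were called and still no member. Since the genotype comparison in conditioned medium and the medium comparison in KO share the conditioned KO libraries, their values are not independent.

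Acaca, acetyl-CoA carboxylase, commits acetyl-CoA to fatty acids. Most of its fragments were assigned to a different start-site group in conditioned KO than in the other groups, while its total showed little change. The total was 35.2 and 34.7 CPM, then 41.2, 54.5 and 31.6, then 32.5, 40.5 and 43.7, and then 31.6, 43.1 and 44.7, with a change in KO of 0.03 (SE 0.21, adjusted p = 0.921). The authors' assembly gives Acaca 2 start-site groups. The downstream group is the RefSeq transcript of 9032 bases, which starts at base 84195438 of chromosome 11 (GRCm38). The upstream group has 2 assembled transcripts of 9226 and 9179 bases that share only part of its junctions, and the locus begins 15658 bases before the RefSeq start. The window around that start, shown to place it, holds none of the 5 motifs and so has no capitals. Its bases just before the start read tttttcccatag, a run of pyrimidines and AG as at the end of an intron. Whether transcription begins there or the RefSeq transcript lacks its first part was not tested, so the shares below describe assigned transcripts only.
Acaca, chr11:84195188-84195487, plus strand: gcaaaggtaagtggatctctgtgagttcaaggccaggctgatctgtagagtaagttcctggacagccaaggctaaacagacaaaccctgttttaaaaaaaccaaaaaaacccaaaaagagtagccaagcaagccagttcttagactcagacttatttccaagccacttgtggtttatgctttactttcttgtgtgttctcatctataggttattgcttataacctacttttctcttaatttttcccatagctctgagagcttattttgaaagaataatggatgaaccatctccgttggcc

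The RefSeq start took 19.8% and 15.6% of Acaca fragments in unconditioned WT libraries 0 and 2, 20.1%, 0.580% and 21.6% in conditioned WT, 40.5%, 25.5% and 14.5% in unconditioned KO, and 68.4%, 70.2% and 60.3% in conditioned KO. All 3 conditioned KO libraries, library 0 included, lay above the other 8. The mean share was 66.3% ± 5.28 (SD, n = 3) in conditioned KO against 26.8% ± 13 (SD, n = 3) in unconditioned KO, a difference of 39.5 percentage points. An exact two-sided permutation test gave p = 0.1, which is the smallest that 3 against 3 libraries allow. Conditioned WT was at 14.1% ± 11.7 (SD, n = 3), 52.2 points below conditioned KO, with the same exact p of 0.1. In WT the share differed by -3.63 points between media (exact permutation p = 1).

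In fragments, the RefSeq start had 195, 146 and 94 in unconditioned KO and 348, 497 and 501 in conditioned KO. The upstream group had 286, 428 and 554 fragments in unconditioned KO and 160, 211 and 329 in conditioned KO. These groups overlapped for the upstream start and not for the RefSeq start. How often this holds over all start-site groups is not given here. Over all 16972 start-site groups tested with edgeR, the RefSeq start had a change of 1.41 in KO (SE 0.79, adjusted p = 0.279) and the upstream group by -1.10 (SE 0.35, adjusted p = 0.0876), and neither was called, against 6.76% of all groups. Without conditioned KO library 0 the RefSeq start had a change of 1.54 (SE 0.90, adjusted p = 0.241), and the value for the upstream group was -0.91 (SE 0.39, adjusted p = 0.115). The RefSeq start was called without conditioned WT library 1 (1.41, SE 0.28, adjusted p = 0.041), and the upstream group without unconditioned KO library 0 (-1.32, SE 0.35, adjusted p = 0.0499). Of 42 member groups tested, 1 was called in any comparison, that of Vps51 in the averaged effect at 0.40 (SE 0.09, adjusted p = 0.0247), against 11.1% of all groups. The interaction was 1.68 (SE 1.16) and -1.47 (SE 0.52), with an adjusted p of 0.933 for both, against 0% of groups called. The authors' deposited table of start-site use marked Acaca alone among 8 members tested, with a distance of 0.293 (q = 0.0190) between the media in KO and 0.408 (q = 0.00745) between the genotypes in conditioned medium, against 0.678% of genes marked in each. Its distance was 0.0651 (q = 0.935) between the media in WT, where 1.48% of genes were marked, and 0.0589 (q = 0.944) between the genotypes in unconditioned medium, where 0.957% were.

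**Figure D4:**
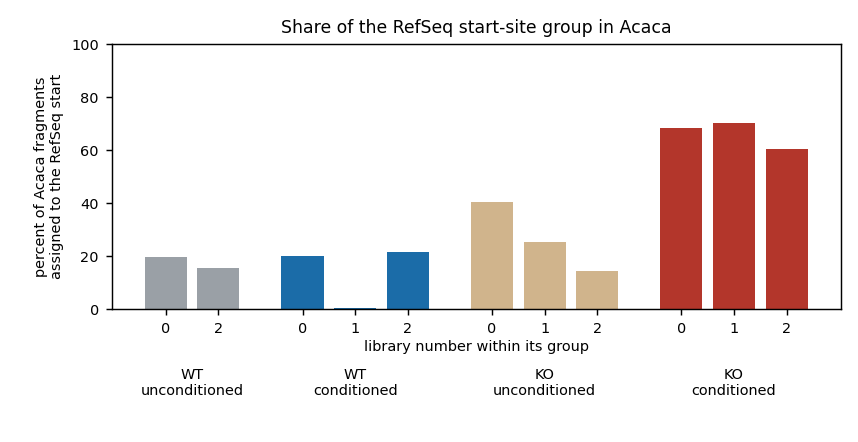
Percent of the fragments of Acaca that the authors' assignment gave to the RefSeq start site, in each of the 11 libraries by genotype and medium. The 3 conditioned KO libraries stand at 60.3% to 70.2% and the other 8 at 0.580% to 40.5%.

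These shares are estimates that divide reads common to both transcripts. The repeated unconditioned WT library gives a measure of the error of assignment alone, since its copies have equal reads. They were assigned 17.8% and 21.9% to the RefSeq start of Acaca, a difference of 4.08 points. Scatter between libraries comes on top, as in the 14.5% to 40.5% of unconditioned KO. For Insig2 the copies differed by 9.87 points, about as much as the 9.65 points between the media in KO for its main start, and no weight is put on the other shares. Shares were compared for 6 members with at least 2 start sites of 10% or more each, in 52 comparisons, none of which can reach an exact p under 0.1. In 13 of the 52 the groups did not overlap, for Insig2, Fads1 and Scap as well as Acaca.

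Of 51 related genes of sterol and fatty acid handling, 49 were tested, and in both genotypes Npc1 rose and Acsl4 fell with conditioned medium. In WT 1 was higher and 1 lower, in KO 5 higher and 2 lower, and in the averaged effect 7 higher and 2 lower. Called genes were thus 2, 7 and 9 of 49, beside 1.78%, 18.3% and 20.5% of all genes. Their median changes were 0.18, 0.08 and 0.15, beside 0.01, 0.02 and 0.02 over all genes, and the list was chosen with earlier results of these data known. Npc1, the late endosomal protein that hands over cholesterol taken up with lipoproteins, was at 88.9 and 93.5 CPM, then 173, 172 and 158, then 95.2, 74.5 and 83.2, and then 149, 161 and 170. Conditioned libraries were above all unconditioned ones in both genotypes, libraries 0 of KO and 2 of WT included. The change was 0.88 in WT (SE 0.12, adjusted p = 0.0139, or 0.0614 with a block on library number), 0.92 in KO (SE 0.11, adjusted p = 0.00425) and 0.90 averaged (SE 0.08, adjusted p = 0.000413). For Npc1 as for Acsl4, the call was kept in all 11 fits without 1 library in KO and in 8 of 11 in WT, where it was lost without conditioned library 0 or either unconditioned library, with an adjusted p of up to 0.227.

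Acsl4, which activates arachidonic and other polyunsaturated fatty acids, went the other way, at 541 and 548 CPM, then 231, 198 and 272, then 468, 563 and 517, and then 260, 206 and 181. It fell by 1.22 in WT (SE 0.18, adjusted p = 0.0161, or 0.0634 with the block) and by 1.26 in KO (SE 0.17, adjusted p = 0.00450), again without overlap. Ch25h, which makes 25-hydroxycholesterol, an oxysterol known to restrain SREBP processing, was at 8.54 and 6.50 CPM, then 15.8, 51.9 and 10.6, then 5.2, 17.6 and 10.6, and then 16.3, 116 and 128. It rose by 2.97 in KO (SE 0.82, adjusted p = 0.0356), with conditioned KO library 0 inside the range of the controls. Its difference between the genotypes in conditioned medium, 1.74 (SE 0.77, adjusted p = 0.357), did not pass, but was called without conditioned KO library 0, at 2.24 (SE 0.63, adjusted p = 0.0255). Without conditioned WT library 1 it was 2.72 (SE 0.83, adjusted p = 0.393).

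**Figure D5:**
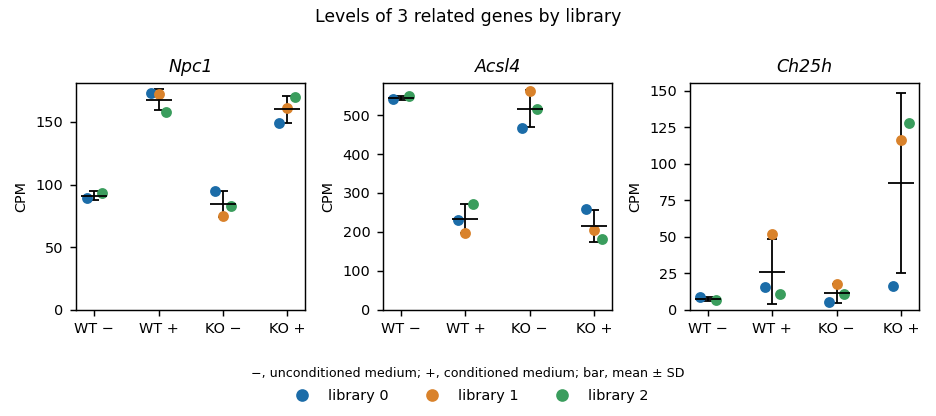
CPM of Npc1, Acsl4 and Ch25h in each library by genotype and medium; points are libraries, coloured by number, and bars give the mean and SD. Npc1 is higher and Acsl4 lower in every conditioned library of both genotypes, while Ch25h is high in conditioned KO libraries 1 and 2, at 116 and 128, and in conditioned WT library 1, at 51.9.

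The remaining called genes of the related list had smaller changes than Ch25h, and the calls of Ch25h, Lbr, Cyp27a1, Lpin1 and Nr1h2 in KO were kept in only 2 or 3 of 11 fits without 1 library. All 5 were called without conditioned KO library 0, with changes of 3.46, -0.63, 1.35, 0.74 and 0.35 in that order. In KO, Lbr, a sterol reductase of the inner nuclear membrane, fell by 0.66 (SE 0.18, adjusted p = 0.0372), and Cyp27a1, a sterol 27-hydroxylase, rose by 1.12 (SE 0.34, adjusted p = 0.0459). Lpin1, a phosphatidate phosphatase, rose by 0.89 (SE 0.25, adjusted p = 0.0372) and Nr1h2, the oxysterol receptor LXR-beta, by 0.35 (SE 0.11, adjusted p = 0.0495). With the block the adjusted p was 0.0589 for Cyp27a1 and 0.0585 for Nr1h2. In the averaged effect, Npc2, the soluble partner of Npc1, rose by 0.56 (SE 0.11, adjusted p = 0.00676) and Erlin2, which brings Insig1 and HMG-CoA reductase to degradation, by 0.34 (SE 0.08, adjusted p = 0.0175). Rnf145, a ubiquitin ligase reported to act on Scap and HMG-CoA reductase, fell by 0.86 (SE 0.24, adjusted p = 0.0301). Without conditioned KO library 0 Rnf145 was also called in KO, at -1.49 (SE 0.22, adjusted p = 0.000952), against 44.9% of all genes. In that fit it was also called between KO and WT in conditioned medium, at -0.98 (SE 0.22, adjusted p = 0.00995), against 33.2%. Of 11 fits without 1 library, the averaged calls were kept in 11 for Npc2, 8 for Erlin2 and 4 for Rnf145.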

How the data were processed

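Gene expression was measured in 4 groups of cultures by sequencing of TruSeq libraries, a kit that keeps no strand. The submitters' processing notes list CASAVA 1.8.2, TopHat2 2.0.9, Cufflinks 2.1.1, Cuffdiff 2.1.1 and GRCm38 (mm10). The values are the authors' Cuffdiff fragments per gene, start-site group and transcript, which are expected counts per the file headers; 94.3% of the gene values are whole. The FPKM column deposited by the authors served for levels per length and for limma. The authors' deposited tests give log2 changes, a distance score for start-site use (square root of the Jensen-Shannon divergence), p-values and q-values.

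Rounded fragments were analysed by the quasi-likelihood test of edgeR 4.0.16 (R 4.3.3; TMM, filterByExpr, robust, 4 groups in 1 fit, 7 residual degrees of freedom) with adjustment over 13603 genes or 16972 start-site groups. SE was taken as the absolute log2 change over the square root of F. The biological coefficient of variation was 0.238. The 1714 rows without a symbol, 2.69% to 3.1% of the fragments of a library, were left out. The repeated library was averaged and counted once. DESeq2 1.42.0 and limma 3.58.1 were alternatives.

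Libraries carry the numbers 0 to 2 of the tables. Within KO, deviations from the group mean correlated at 0.354, 0.241 and 0.317 between libraries numbered alike, so these were taken as pairs from the data, since no label states a pairing. In WT the correlations were -0.146 and 0.438, which give no clear pairing. The main fit held no block. The fits with a block used the library number in WT as well, so their WT and averaged values rest on a pairing not shown there. Conditioned WT library 1 had no unconditioned library of its number left, so it added nothing to these WT and averaged values. For the genotype comparisons with a block, the number was a term shared by KO and WT. Members given in every library were set by step of the pathway, together with every called member and at most 10 called related genes. Scap, Lss, Acat2 and Acaca were added after their values were seen. The 32 members and all lists were chosen with earlier results of these data known. Promoter sequences are from RefSeq (GRCm38.p6).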

Additional observations from a re-analysis of the deposited data

How the results depend on the processing

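Of the alternatives tried, none turned the direction of a called value. The count of members called was sensitive. In KO against WT in conditioned medium, 0 members became 7 without both KO libraries numbered 0, against 42.6% of all genes. As single libraries were left out the count ranged from 0 to 6, against 0% to 33.2% of all genes. The median change of members then ranged from -0.82 to -0.22. For the medium effect in WT, 0 became 1 with DESeq2, 2 without both KO libraries numbered 0 and 1 with both copies of the repeated library kept. Of all genes 6.73%, 11.7% and 6.89% were called there, in that order. With a library left out the count was 0 to 3, against 0% to 6.75% of all genes. For the medium effect in KO, 2 became 1 with no filter on low counts (11.7% of all genes called). It became 0 with limma at a pseudocount of 1 (15.1%) and 0 at 0.1 (15.5%). It was 5 without both KO libraries numbered 0 (50.4%), 0 in a fit on the 2 groups alone (4.12%) and 1 with rows split by transcript (17.8%). With a library left out it was 0 to 8, against 2.36% to 44.9% of all genes. With the replicate block, used since libraries numbered alike varied together in KO, it became 1, against 16.3% of all genes. The 1 member was Scap at -0.39 (SE 0.10, adjusted p = 0.05 after rounding). The block moved no other count of members by more than 1.5 times. For the averaged effect, 2 became 4 with DESeq2 (26.8% of all genes called) and 1 with limma at either pseudocount (18.6% and 19%). It became 4 without both KO libraries numbered 0 (48.6%), 1 with split rows (20.2%) and 4 with both copies kept (30.3%). With a library left out it was 0 to 7, against 8.74% to 41.6% of all genes. Start-site groups called, 0, 0 and 1 of 42 between the genotypes in conditioned medium, for the medium in KO and for the averaged effect, ranged from 0 to 3, 0 to 5 and 0 to 5 with a library left out. The 1 group was that of Vps51. In the main fit 0%, 6.76% and 11.1% of all start-site groups were called in these comparisons, in that order. The cause of these shifts was not tested. Splitting rows and keeping both copies were chosen after seeing the data. Over all genes, the count called for the medium in KO, 2484, ran from 319 to 6822 and that in WT, 242, from 0 to 1589 over the alternatives. With 2 or 3 libraries a group, exact tests of shares cannot pass 0.05, and Idi1, at 2.1 to 9.32 CPM, is the member that depth limits most.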
